A study of Mus musculus with 16 samples.

Results

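The genes described here are 39 genes of the cell cycle and of DNA replication, taken by their symbols from a fixed list, of 20267 genes measured in microglia of 16 mice. All 39 were in the table and all 39 passed the filter set for them, a level of at least 1 CPM, the reads of a gene scaled to the total of its library, in at least 4 of the 16 libraries, which 13912 genes passed. The member nearest to that limit was Bub1, with at least 1 CPM in 7 libraries, and no member lay outside it. They were divided by role into 12 S-phase genes, 22 mitotic genes and 5 others, which are 4 regulators of G1 (Ccnd1, Cdkn1a, Cdkn1b and E2f1) and Stmn1.

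Microglia were compared between WT mice and AD mice, which carry the APPswe/PS1dE9 transgenes and deposit amyloid, with and without p38α, the stress-activated kinase encoded by Mapk14. WT p38+/+ mice were APPswe/PS1dE9-/-, p38fl/fl and Cx3cr1-creERT2-/-, and WT p38KO mice differed from them in being Cx3cr1-creERT2+/-. AD p38+/+ mice were APPswe/PS1dE9+/-, p38fl/fl and Cx3cr1-creERT2-/-, and AD p38KO mice were APPswe/PS1dE9+/-, p38fl/fl and Cx3cr1-creERT2+/-. Each of the 4 groups held 4 mice on the C57BL/6J background, all fed tamoxifen (400 ppm) for 4 weeks from 5 months of age and taken at 11 months, so the controls had the floxed allele and the drug but no Cre. In p38KO mice the Cre sits in 1 allele of Cx3cr1, so that these mice also have 1 intact copy of that gene, and it acts in other cells that use Cx3cr1 as well as in microglia. About 10000 live CD11b+/P2ry12+ cells per mouse were sorted from the left brain hemisphere, which the labels but not the study's methods describe as fixed, and the mice sequenced were those with the best RNA among 6 per genotype. The labels name 11 mice as male and 5 as female.

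Cells that enter the cycle first make cyclin D and E2F activity in G1, then load and fire replication origins and make deoxynucleotides in S phase, and then build a spindle and separate the chromosomes in mitosis. The S-phase genes are switched on largely by E2F factors at the start of replication. Most mitotic genes are kept off in resting cells by the DREAM complex. They are switched on in G2 by MuvB complexes that act through the CHR element, and many of their promoters also hold a CCAAT element. Adult microglia are long-lived and divide rarely, and around amyloid plaques they are known to divide more. The RNA of mitotic genes in a sorted population may therefore come from a small share of its cells, which bulk libraries cannot show.

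Each CPM stood for 12.2 to 16.4 assigned reads, as estimated from the smallest step between values, so that 3 reads corresponded to 0.183 to 0.245 CPM. The 16 libraries held 15487 to 18058 detected genes. The Mapk14 transcript that encodes isoform 1 of p38α and holds the deleted exon 1 (ENSMUST00000062694) was at 47.1 to 82.6 CPM in p38+/+ mice of both backgrounds and at 0.0575 to 0.248 CPM in the p38KO mice. All 14 microglia markers checked were abundant in every library, among them Tmem119 (5022 to 7293 CPM) and P2ry12 (6639 to 10100 CPM, named by the sort). In a principal component analysis the first component set AD p38KO mouse 4 apart and the second AD p38KO mouse 1. Mouse 4 had the fewest detected genes (15487) and listed at 0 the most genes that were at 1 CPM or more in all the others, mouse 1 listed 25 such genes, and no other library more than 3. Red blood cell markers summed to 467 CPM in AD p38KO mouse 4 and to 364 CPM in WT p38KO mouse 3. A value listed at 0 in AD p38KO mice 1 and 4 may therefore be a failed estimate. Many, but not all, results that rest on these 2 libraries are also given without them. Where reads were few this matters most, and 9 of the 22 mitotic genes were listed at 0 in AD p38KO mouse 4, 4 in mouse 1, 4 in mouse 2 and none in mouse 3.

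Levels were highest for Ccnd1, the D-type cyclin of G1, and for the replication genes, and lowest for genes of the spindle and kinetochore. As TPM, a level per transcript length, Ccnd1 stood at 76.1 ± 16.9, Mcm3, a subunit of the replicative helicase, at 74.1 ± 10.2, Pcna, the sliding clamp of DNA polymerase, at 56.4 ± 8.79 and Stmn1, a tubulin-binding protein, at 44.7 ± 11.1 TPM (SD, n = 16 libraries). Neighbours in this order did not differ beyond their spread. Cdk1, the kinase that drives mitosis, led the mitotic genes with 9.06 ± 4.59 TPM, while Mki67, the gene of the proliferation antigen Ki-67, was at 0.87 ± 0.61 and Cenpe, a kinetochore motor, at 0.30 ± 0.18. The spread over the 16 libraries, as a coefficient of variation of the CPM, ran from 12.5% (Mcm3) to 70.9% (Rrm2) among S-phase genes and from 40.2% (Cdc20) to 134% (Kif23) among mitotic genes. By coordinates, 11 of the 39 share bases with another gene of the table, 10 of them with a gene on the opposite strand, among them Tk1, Prc1, Kif20a and Cdkn1a. Whether the authors counted by strand is not given in the sources used here, so reads of such a pair may not be separable.

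The promoters of the 2 main classes differ most in the CHR, while the CCAAT box is common in both, and 5 member promoters are shown. They are the 250 bases before the start site of the RefSeq transcript (build GRCm38.p6), which was 0 to 67 bases from the start of the most abundant transcript of these genes. Capitals mark the CHR (TTTGAA), the E2F site (TTGGCGC or TTCGCGC) and the CCAAT box (CCAAT), searched on both strands, and a pair of E2F matches in Mcm5 overlap each other. Cdk1 and Kif11, the motor that pushes the spindle poles apart, are mitotic genes, Mcm5 and Uhrf1 are S-phase genes, and Cdkn1a, a CDK inhibitor, has none of the 3 motifs. Cdk1 also has 2 E2F matches, and Uhrf1 has neither an E2F match nor a CHR.
Cdk1 (chr10:69352913-69353162, minus strand): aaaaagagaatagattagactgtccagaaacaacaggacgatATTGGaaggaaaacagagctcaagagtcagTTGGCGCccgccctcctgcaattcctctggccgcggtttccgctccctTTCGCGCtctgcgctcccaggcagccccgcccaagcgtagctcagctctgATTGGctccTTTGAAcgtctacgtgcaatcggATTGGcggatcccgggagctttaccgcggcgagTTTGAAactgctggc
Kif11 (chr19:37376132-37376381, plus strand): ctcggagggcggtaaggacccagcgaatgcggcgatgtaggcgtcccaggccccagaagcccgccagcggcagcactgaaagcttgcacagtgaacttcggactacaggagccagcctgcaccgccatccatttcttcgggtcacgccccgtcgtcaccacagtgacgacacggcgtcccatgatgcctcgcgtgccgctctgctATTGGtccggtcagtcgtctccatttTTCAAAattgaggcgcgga
Mcm5 (chr8:75109259-75109508, plus strand): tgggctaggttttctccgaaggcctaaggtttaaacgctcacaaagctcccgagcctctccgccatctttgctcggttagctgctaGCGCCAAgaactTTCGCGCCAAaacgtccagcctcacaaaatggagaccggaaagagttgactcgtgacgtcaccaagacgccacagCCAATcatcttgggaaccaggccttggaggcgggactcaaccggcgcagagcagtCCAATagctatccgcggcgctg
Uhrf1 (chr17:56303087-56303336, plus strand): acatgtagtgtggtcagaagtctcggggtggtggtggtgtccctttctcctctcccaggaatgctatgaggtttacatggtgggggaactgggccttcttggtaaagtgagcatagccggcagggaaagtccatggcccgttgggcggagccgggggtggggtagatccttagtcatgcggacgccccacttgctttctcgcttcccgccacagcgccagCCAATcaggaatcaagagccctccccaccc
Cdkn1a (chr17:29093519-29093768, plus strand): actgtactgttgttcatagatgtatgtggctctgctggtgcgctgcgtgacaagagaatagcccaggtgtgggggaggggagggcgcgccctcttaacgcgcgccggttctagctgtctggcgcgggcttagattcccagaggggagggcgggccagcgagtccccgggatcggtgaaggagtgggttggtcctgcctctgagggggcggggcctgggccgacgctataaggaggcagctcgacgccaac

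Of the 39 genes, 32 had a promoter of 300 bases (250 before and 50 after the start) in the RefSeq table, and the remaining 7 were Mcm4, Ccna2, Aurkb, Kif20a, Tpx2, Ccnd1 and Stmn1. The CHR letters were in 13 of 18 mitotic promoters (72.2%) and in 1 of 11 S-phase promoters, that of Mcm2, against 17.9% of all 32851 promoters of that length. The E2F letters were in 4 of 11 S-phase promoters (Mcm3, Mcm5, Mcm6 and Mcm7) and in 3 of 18 mitotic promoters (Mki67, Cdk1 and Ccnb1), against 3.89% of all. The CCAAT box was in 16 of 18 mitotic and 9 of 11 S-phase promoters, against 37.4% of all. In Cdk1 the CHR nearest to the start lies 15 bases before it and a CCAAT box lies 48 bases before it, and in Kif11 these distances are 19 and 45 bases.

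The effect of amyloid was measured first in mice with p38α. In AD p38+/+ mice 38 of the 39 genes had a higher mean than in WT p38+/+ mice on the log2(CPM + 0.5) scale, including all 12 S-phase and all 22 mitotic genes, but none of the 39 passed the test across all genes. The median log2 fold change was 0.76 over the mitotic genes and 0.37 over the S-phase genes, against -0.01 over all genes tested, of which 49.1% were higher. Summed over the 22 genes, mitotic RNA was at 41.5, 40.6, 55.5 and 60.5 CPM in the WT p38+/+ mice and at 85.1, 63.60, 66.4 and 114.98 CPM in the AD p38+/+ mice. Summed over the 12 genes, S-phase RNA was at 233, 304, 315 and 332 CPM in WT p38+/+ and at 364, 361, 343 and 359 CPM in AD p38+/+ mice. Neither sum overlapped between these 2 groups. In bulk RNA, a difference in the number of cycling cells and a difference in these RNAs per cell cannot be told apart.

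In this comparison 50 of 13912 genes (0.359%) were called by limma at an adjusted p under 0.05, 50 higher and 0 lower, and 0 of the 39. At an unadjusted p under 0.05, 6 of the 39 were higher (Uhrf1, Stmn1, Cenpe, Kif11, Mcm5 and Cdk1) and none lower, against 4.69% of all genes higher. The 4 AD p38+/+ mice all lay above the 4 WT p38+/+ mice for 5 members (Uhrf1, Aurkb, Kif11, Cenpe and Stmn1), against 3.36% of all genes. Groups of 4 that do not overlap give the smallest p that an exact permutation test (two-sided) of 4 against 4 mice allows, 0.0286, and the same holds in the other comparisons. Markers of oligodendrocyte precursors, which also divide in the adult brain, had their highest summed level in AD p38+/+ mouse 1. Their sum was 0 to 2.07 CPM in WT p38+/+ and 0.50 to 1.71 in WT p38KO mice. It was 20.9, 4.83, 2.32 and 5.46 CPM in AD p38+/+ and 8.87, 1.27, 3.81 and 6.63 CPM in AD p38KO mice. All 4 AD p38+/+ mice thus lay above the 4 WT p38+/+ mice, at 2.32 CPM or more against 2.07 CPM or less. The AD p38+/+ mice other than mouse 1 lay within the range of the AD p38KO mice. Cspg4 was the most abundant of these markers (0 to 17.8 CPM). All 7 of the 10 listed markers that were in the table were detected in some library, Olig2 was at 0 in all 8 p38KO mice, and the part of these cells in the result was not tested. Of the markers of border macrophages, which include Mrc1 and Pf4, none was called. On the log2 scale 9 of 10 were higher in AD p38+/+ than in WT p38+/+ mice (median log2 fold change 0.28). In AD p38KO against WT p38KO mice 8 of 10 were lower (median -0.53, and 7 of 10 with a median of -0.14 without AD p38KO mice 1 and 4). In WT p38KO against WT p38+/+ mice 9 of 10 were higher (median 0.59). The medians over all genes are given with each comparison. Their sums, mostly Stab1, overlapped between the groups. They were 375 to 827 CPM in WT p38+/+, 506 to 672 in WT p38KO, 435 to 628 in AD p38+/+ and 356 to 584 in AD p38KO mice. The mean sum was lower in AD p38+/+ (523 CPM) than in WT p38+/+ mice (606 CPM), unlike the count of markers. The part of these cells was not tested.

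**Figure D1:**
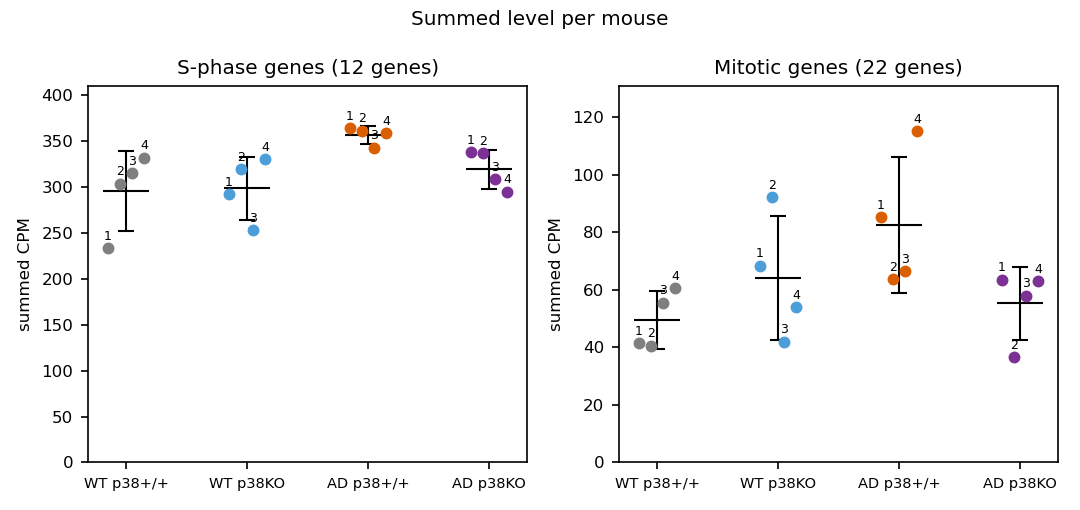
Summed CPM of the 12 S-phase genes and of the 22 mitotic genes (vertical axes, from 0) in each mouse of the 4 groups (horizontal axis), numbered, with the mean and the SD (n = 4 mice). The AD p38+/+ mice lie at 343 to 364 CPM for S-phase and 63.60 to 114.98 CPM for mitotic genes, above all WT p38+/+ mice, while the WT p38KO and AD p38KO mice overlap each other in both panels.

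Among the S-phase genes the largest difference was in Uhrf1, which binds hemimethylated DNA behind the replication fork and brings in the maintenance DNA methyltransferase. Uhrf1 was at 4.70, 1.28, 2.88 and 2.88 CPM in WT p38+/+ mice, 5.53, 5.30, 4.10 and 7.99 in WT p38KO mice, 10.9, 6.79, 9.12 and 6.51 in AD p38+/+ mice and 9.91, 6.53, 10.1 and 3.11 in AD p38KO mice. The WT p38+/+ mice were the lowest group, with no overlap with AD p38+/+, and AD p38KO mouse 4 alone among the AD mice was within the range of WT p38+/+ mice. The log2 fold change was 1.43 ± 0.37 (SE, limma, adjusted p = 0.179) for AD p38+/+ over WT p38+/+ mice, 0.26 ± 0.37 (SE, limma, adjusted p = 0.874) for AD p38KO over WT p38KO and 0.92 ± 0.37 (SE, limma, adjusted p = 1.00) for WT p38KO over WT p38+/+. Over both p38 genotypes it was 0.85 ± 0.26 (SE, limma, adjusted p = 0.18), and without AD p38KO mouse 4 this main effect was called (adjusted p = 0.0350). It was not called in any other refit, including the one without AD p38KO mice 1 and 4 together. The share of all genes called without mouse 4 is not given here.

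Mcm5, another helicase subunit, was at 11.4, 8.46, 9.72 and 21.4 CPM in WT p38+/+ mice, 11.7, 15.5, 8.71 and 23.5 in WT p38KO mice, 17.996, 22.3, 21.5 and 28.0 in AD p38+/+ mice and 23.98, 17.7, 7.22 and 13.3 in AD p38KO mice. Its AD p38+/+ values were higher than those of 3 of the 4 WT p38+/+ mice, and the log2 fold change of 0.87 ± 0.35 (SE, limma, adjusted p = 0.606) was not called. The other helicase subunits Mcm2, Mcm4, Mcm6, Mcm7 and Mcm3 had log2 fold changes of 0.59, 0.52, 0.43, 0.21 and 0.09 between the same groups. The 6 subunits act as 1 ring, and all 6 had a higher mean in AD p38+/+ mice, although none passed the test. Mcm3, the most abundant of them, was at 79.6, 113, 93.7 and 113 CPM in WT p38+/+ mice, 93.9, 110, 84.6 and 103 in WT p38KO mice, 100.6, 114.9, 105 and 100 in AD p38+/+ mice and 76.3, 92.1, 107.2 and 86.2 in AD p38KO mice. All 4 groups overlapped for Mcm3, whose 95% confidence interval for AD p38+/+ over WT p38+/+ ran from -0.19 to 0.37 on the log2 scale.

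Pcna was at 43.0, 25.8, 45.0 and 36.6 CPM in WT p38+/+ mice, 39.7, 39.5, 34.3 and 39.5 in WT p38KO mice, 49.7, 42.0, 42.4 and 48.1 in AD p38+/+ mice and 49.7, 43.1, 37.3 and 58.0 in AD p38KO mice. The AD and WT mice of each p38 genotype overlapped, and the log2 fold change of AD over WT mice was 0.30 ± 0.17 with p38α and 0.28 ± 0.17 without it (SE). It was 0.13 with p38α when WT p38+/+ mouse 2 was left out, and 0.07 without p38α when AD p38KO mice 1 and 4 were. Rrm1, the large subunit of ribonucleotide reductase, which makes deoxynucleotides, was at 24.1, 36.3, 57.0 and 35.5 CPM in WT p38+/+ mice, 32.4, 35.9, 33.4 and 42.1 in WT p38KO mice, 41.8, 51.6, 33.1 and 47.9 in AD p38+/+ mice and 50.1, 44.9, 48.1 and 5.41 in AD p38KO mice. Its log2 fold change of -0.61 for AD p38KO over AD p38+/+ mice rested on mouse 4 and was 0.11 without AD p38KO mice 1 and 4. Rrm2, the small subunit, which cycling cells make in S phase, was at 4.35, 1.22, 2.88 and 1.93 CPM in WT p38+/+ mice, 1.46, 3.25, 1.87 and 3.80 in WT p38KO mice, 7.76, 2.76, 2.88 and 7.23 in AD p38+/+ mice and 7.74, 0.955, 3.42 and 0.0678 in AD p38KO mice. Rrm2 ran over nearly the whole range within the AD p38KO group alone, and its log2 fold change against AD p38+/+ mice was -1.18 ± 0.63 (SE, limma, adjusted p = 0.752). Without AD p38KO mouse 4 it was -0.51 and without mouse 1 it was -1.80.

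Tyms, thymidylate synthase, was at 11.02, 13.8, 18.5 and 12.8 CPM in WT p38+/+ mice, 11.7, 13.5, 13.96 and 12.8 in WT p38KO mice, 16.8, 12.5, 13.9 and 15.2 in AD p38+/+ mice and 15.8, 15.3, 15.8 and 23.9 in AD p38KO mice. It was the only member whose AD p38KO mice all lay above the WT p38KO mice, with a log2 fold change of 0.41 ± 0.20 (SE, limma, adjusted p = 0.529), which was 0.25 without AD p38KO mice 1 and 4, and between the groups with p38α it was 0.07 ± 0.20 (SE). Tk1, thymidine kinase, ranged from 0.388 to 8.23 CPM over all libraries and its log2 fold changes of AD over WT mice were 0.05 with p38α and -0.21 without it.

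**Figure D2:**
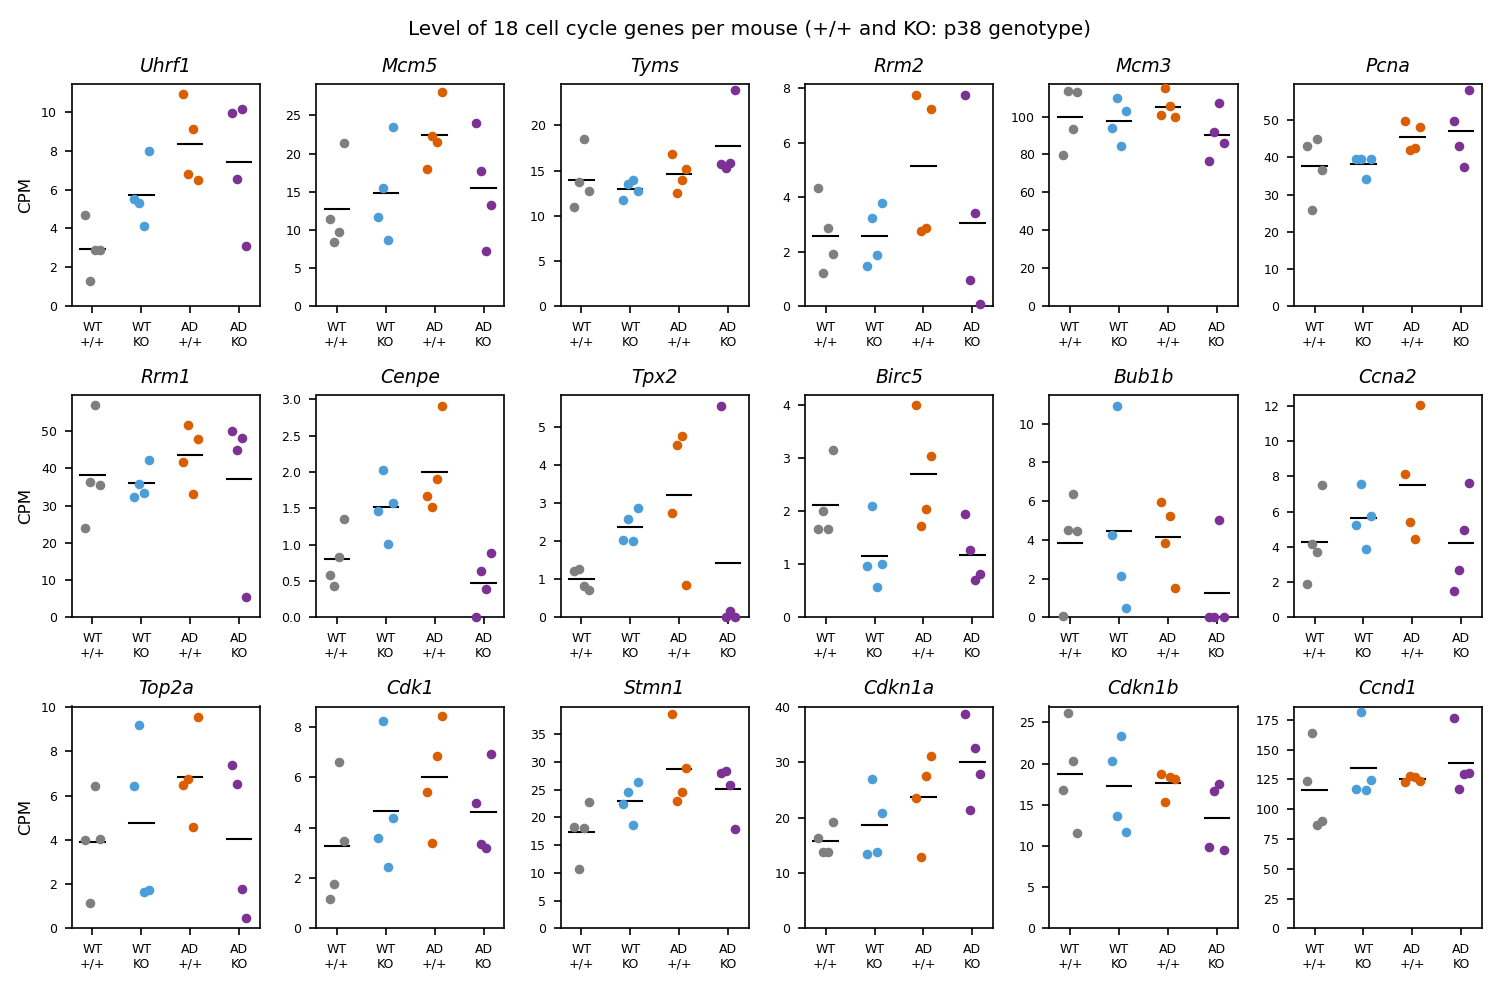
CPM (vertical axes, from 0) of the 18 genes given by mouse in the text, in the 4 groups (horizontal axes, 4 points each, a bar at the mean). Uhrf1 and Cenpe show AD p38+/+ mice above all WT p38+/+ mice, Cenpe also AD p38KO mice below all AD p38+/+ mice, and Tpx2 and Bub1b a lone AD p38KO mouse above 3 mice at or near 0.

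Among the mitotic genes, Cenpe had the smallest p in a comparison of 2 groups. Cenpe, the motor that carries chromosomes to the middle of the spindle, was at 0.580, 0.426, 0.835 and 1.35 CPM in WT p38+/+ mice, 1.46, 2.02, 1.01 and 1.58 in WT p38KO mice, 1.67, 1.52, 1.90 and 2.91 in AD p38+/+ mice and 0, 0.637, 0.388 and 0.880 in AD p38KO mice. In mice with p38α the AD values were above all WT values, and in mice without it they were below all WT values. The log2 fold change of AD over WT mice was 0.96 ± 0.37 (SE, limma, adjusted p = 0.551) with p38α and -1.12 ± 0.37 (SE, limma, adjusted p = 0.314) without it. AD p38KO mice were also below all AD p38+/+ mice, with a log2 fold change of -1.42 ± 0.37 (SE, limma, adjusted p = 0.316). Leaving out each library in turn gave -1.62 to -1.13. All CPM values of Cenpe correspond to few reads, since 1 CPM is 12.2 to 16.4 reads.

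Tpx2, which activates Aurora A on the spindle, was at 1.23, 1.28, 0.835 and 0.707 CPM in WT p38+/+ mice, 2.03, 2.60, 2.01 and 2.87 in WT p38KO mice, 2.74, 4.55, 4.78 and 0.851 in AD p38+/+ mice and 5.56, 0, 0.155 and 0 in AD p38KO mice. WT p38KO mice were above all WT p38+/+ mice, and in the AD p38KO group mouse 1 was the highest of all 16 libraries while the other 3 were at or near 0. The log2 fold change for AD p38KO over AD p38+/+ mice was -1.72 ± 0.64 (SE, limma, adjusted p = 0.648). Without AD p38KO mouse 1, the only high value of its group, it was -2.59, and Tpx2 was called (limma, adjusted p = 0.0472). It was also called there against WT p38KO mice (adjusted p = 0.0303). That refit keeps the 0 of mouse 4, and Tpx2 was not called without AD p38KO mice 1 and 4 together. The share of all genes called without mouse 1 is not given here. Bub1b, a kinase-like protein of the spindle checkpoint, was at 0.0726, 4.50, 6.38 and 4.43 CPM in WT p38+/+ mice, 4.23, 10.9, 2.16 and 0.502 in WT p38KO mice, 5.95, 3.86, 5.21 and 1.49 in AD p38+/+ mice and 0, 0, 5.05 and 0 in AD p38KO mice. It was listed at 0 in AD p38KO mice 1, 2 and 4 and not in mouse 3, and its log2 fold change against AD p38+/+ mice, -2.21 ± 0.89 (SE, limma, adjusted p = 0.665), had the widest error among the members and was -1.34 without AD p38KO mice 1 and 4.

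Birc5, survivin, a part of the chromosomal passenger complex, was at 1.67, 2.01, 1.67 and 3.15 CPM in WT p38+/+ mice, 0.976, 2.09, 0.576 and 1.00 in WT p38KO mice, 4.01, 1.72, 2.04 and 3.05 in AD p38+/+ mice and 1.95, 1.27, 0.699 and 0.812 in AD p38KO mice. It was lower on average in both p38KO groups, with overlap, and its log2 fold change was -0.82 ± 0.26 (SE, limma, adjusted p = 0.651) for the p38 KO main effect. Ccna2, cyclin A, was at 1.87, 4.13, 3.72 and 7.48 CPM in WT p38+/+ mice, 5.22, 7.58, 3.86 and 5.77 in WT p38KO mice, 8.10, 5.41, 4.41 and 12.1 in AD p38+/+ mice and 1.503, 2.69, 4.95 and 7.62 in AD p38KO mice. Top2a, which untangles replicated chromosomes, was at 3.99, 1.16, 6.45 and 4.05 CPM in WT p38+/+ mice, 6.43, 9.17, 1.66 and 1.72 in WT p38KO mice, 6.49, 6.76, 4.57 and 9.57 in AD p38+/+ mice and 7.37, 6.53, 1.79 and 0.474 in AD p38KO mice. For both, the highest value was in AD p38+/+ mouse 4 and each group overlapped every other, and for AD p38+/+ over WT p38+/+ mice the log2 fold changes were 0.77 and 0.87. Without WT p38+/+ mouse 2 that of Top2a was 0.45, and without WT p38+/+ mouse 1 that of Ccna2 was 0.48.

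Cdk1, whose promoter is shown above, was at 1.16, 1.76, 6.604 and 3.47 CPM in WT p38+/+ mice, 3.58, 8.23, 2.45 and 4.37 in WT p38KO mice, 5.42, 3.38, 6.82 and 8.44 in AD p38+/+ mice and 4.96, 3.34, 3.18 and 6.90 in AD p38KO mice. The groups overlapped, and the log2 fold change was 0.96 ± 0.44 (SE, limma, adjusted p = 0.681) with p38α and 0.04 ± 0.44 (SE, limma, adjusted p = 0.989) without it. Its cyclins Ccnb1 and Ccnb2 had log2 fold changes of 0.58 and 0.98 between the groups with p38α. Kif11 had the largest fold change of the 39 in this comparison, 1.76 ± 0.71 (SE, limma, adjusted p = 0.597). It was at 0.870, 0.852, 0 and 1.35 CPM in WT p38+/+ and at 3.95, 2.28, 3.38 and 4.26 CPM in AD p38+/+ mice, which did not overlap. Aurkb, the kinase of the passenger complex, was at 1.74, 0.913, 1.06 and 1.61 CPM in WT p38+/+ and 3.35, 2.14, 3.03 and 5.96 CPM in AD p38+/+ mice, again without overlap, with a log2 fold change of 1.12 ± 0.60 (SE, limma, adjusted p = 0.766). For both genes the WT p38KO mice overlapped the AD p38+/+ mice. Kif11 was at 1.55, 0.0723, 3.45 and 2.58 CPM in WT p38KO and 0, 3.02, 5.05 and 5.89 CPM in AD p38KO mice. Aurkb was at 3.01, 1.08, 3.02 and 4.23 CPM in WT p38KO and 2.56, 0.398, 5.36 and 0 CPM in AD p38KO mice.

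The other mitotic genes had smaller or less even differences between these 2 groups. Mki67 was at 5.0003, 2.19, 2.51 and 0.707 CPM in WT p38+/+ and 4.08, 4.14, 1.55 and 9.93 CPM in AD p38+/+ mice, and AD p38+/+ mouse 4 was the highest of all libraries. The log2 fold changes of the cytokinesis genes Kif20a, Kif23 and Prc1 were 1.17, 1.20 and 0.16, those of Ube2c and Cdc20, which act with the anaphase-promoting complex, 0.75 and 0.20, and those of the spindle kinases Aurka, Plk1 and Bub1 0.28, 0.24 and 0.56. Nusap1, a spindle protein, and Cenpf, a kinetochore protein, had 0.42 and 0.03. The highest of the 16 libraries was AD p38+/+ mouse 4 for 11 of the 22 mitotic genes, and AD p38KO mouse 4 was the lowest, or tied for it, for 10.

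**Figure D3:**
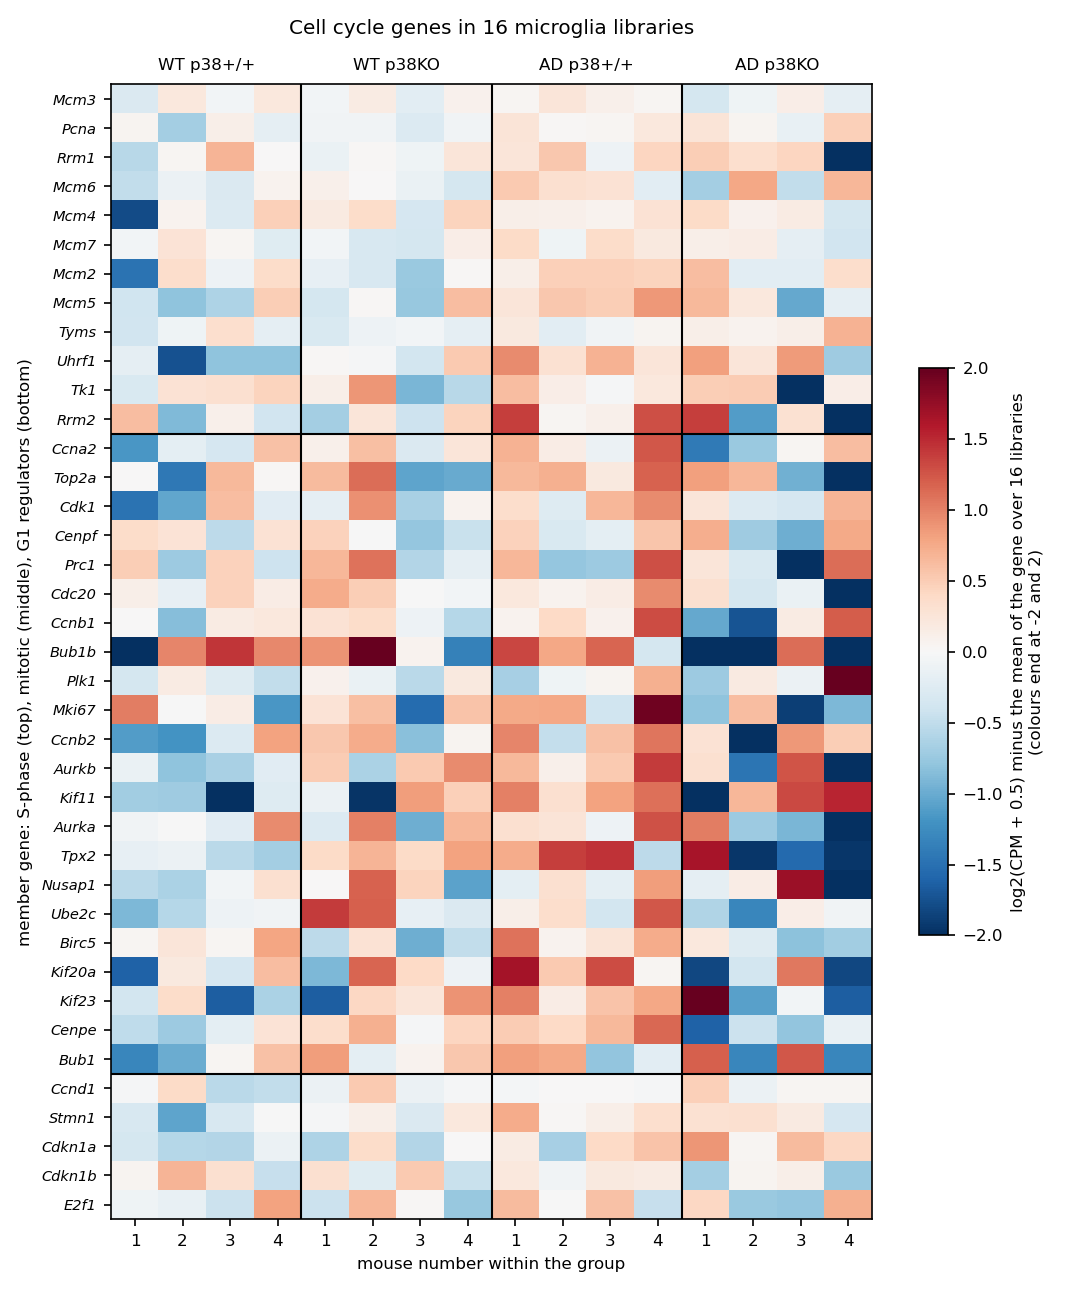
Level of each of the 39 genes (rows, by role and then by mean CPM) in the 16 libraries (columns, by group and mouse number), as log2(CPM + 0.5) minus the mean of that gene over the libraries. Red is above and blue below the mean, with colours ending at -2 and 2, and most rows are red in the AD p38+/+ columns, whereas the AD p38KO columns hold both the deepest blue and the deepest red, as in Tpx2, Kif23 and Plk1.

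The G1 regulators and Stmn1 differed less as a group. Stmn1, the stathmin that takes microtubules apart and is made in dividing cells, was at 18.2, 10.6, 18.1 and 22.7 CPM in WT p38+/+ mice, 22.4, 24.6, 18.6 and 26.4 in WT p38KO mice, 38.6, 23.0, 24.6 and 29.0 in AD p38+/+ mice and 28.1, 28.4, 25.9 and 17.8 in AD p38KO mice. The AD p38+/+ mice were above all WT p38+/+ mice, and the log2 fold change was 0.73 ± 0.23 (SE, limma, adjusted p = 0.361) with p38α and 0.11 ± 0.23 (SE, limma, adjusted p = 0.921) without it. Cdkn1a, the CDK inhibitor induced by p53, was at 16.2, 13.8, 13.7 and 19.2 CPM in WT p38+/+ mice, 13.3, 27.0, 13.7 and 20.9 in WT p38KO mice, 23.5, 12.96, 27.6 and 31.1 in AD p38+/+ mice and 38.8, 21.3, 32.5 and 27.8 in AD p38KO mice. Its 4 AD p38KO mice lay above 3 of the 4 WT p38KO mice, and its log2 fold change was 0.70 ± 0.28 (SE, limma, adjusted p = 0.43) there and 0.61 ± 0.20 (SE, limma, adjusted p = 0.192) over both p38 genotypes. Unlike 17 of the 22 mitotic genes, it had a higher mean in AD mice both with and without p38α, but that difference between genes was not tested.

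Cdkn1b, a CDK inhibitor of resting cells, was at 16.8, 26.1, 20.3 and 11.6 CPM in WT p38+/+ mice, 20.3, 13.6, 23.3 and 11.7 in WT p38KO mice, 18.8, 15.3, 18.4 and 18.2 in AD p38+/+ mice and 9.85, 16.7, 17.5 and 9.47 in AD p38KO mice. It was the only member with a lower mean in AD p38+/+ than in WT p38+/+ mice on the log2 scale, by -0.03 ± 0.28 (SE), and in AD p38KO against AD p38+/+ mice it differed by -0.44 ± 0.28 (SE, limma, adjusted p = 0.794). The second difference was -0.04 without AD p38KO mice 1 and 4, and the first was 0.15 without WT p38+/+ mouse 2. Ccnd1 was at 124, 164, 87.1 and 90.1 CPM in WT p38+/+ mice, 117, 181, 115.97 and 125 in WT p38KO mice, 123, 128, 127 and 124 in AD p38+/+ mice and 177, 117, 130 and 130 in AD p38KO mice. Its groups overlapped, with AD p38+/+ mice within a narrow range, and its log2 fold changes in the 4 comparisons of 2 groups lay between 0.05 and 0.23, the first of which was -0.10 without AD p38KO mice 1 and 4. E2f1, a transcription factor of the G1/S step, ranged from 2.49 to 8.42 CPM, and its log2 fold change was 0.15 with p38α and 0.03 without it.

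In mice without p38α the members were divided in direction. In AD p38KO against WT p38KO mice the mean was lower for 17 of the 22 mitotic genes (median log2 fold change -0.45) and higher for 7 of the 12 S-phase genes (median 0.05), against a median of -0.04 over all genes. Mitotic RNA summed to 68.4, 92.3, 42.0 and 53.9 CPM in WT p38KO and to 63.45, 36.6, 57.9 and 63.0 CPM in AD p38KO mice, and the groups overlapped. S-phase RNA summed to 293, 319, 253 and 330 CPM and to 338, 337, 309 and 295 CPM, also with overlap. Without AD p38KO mice 1 and 4, 18 mitotic genes were lower (median -0.55) and 8 S-phase genes higher (median 0.08). None of the 39 was called by limma here, against 0.323% of all genes. At an unadjusted p under 0.05, Cdkn1a was higher, against 3.76% of all genes, and 4 members were lower (Cenpe, Tpx2, Bub1b and Ube2c), against 5.80%. Tyms did not overlap and was higher (2.60% of all genes), and Cenpe did not overlap and was lower (2.33%).

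**Figure D4:**
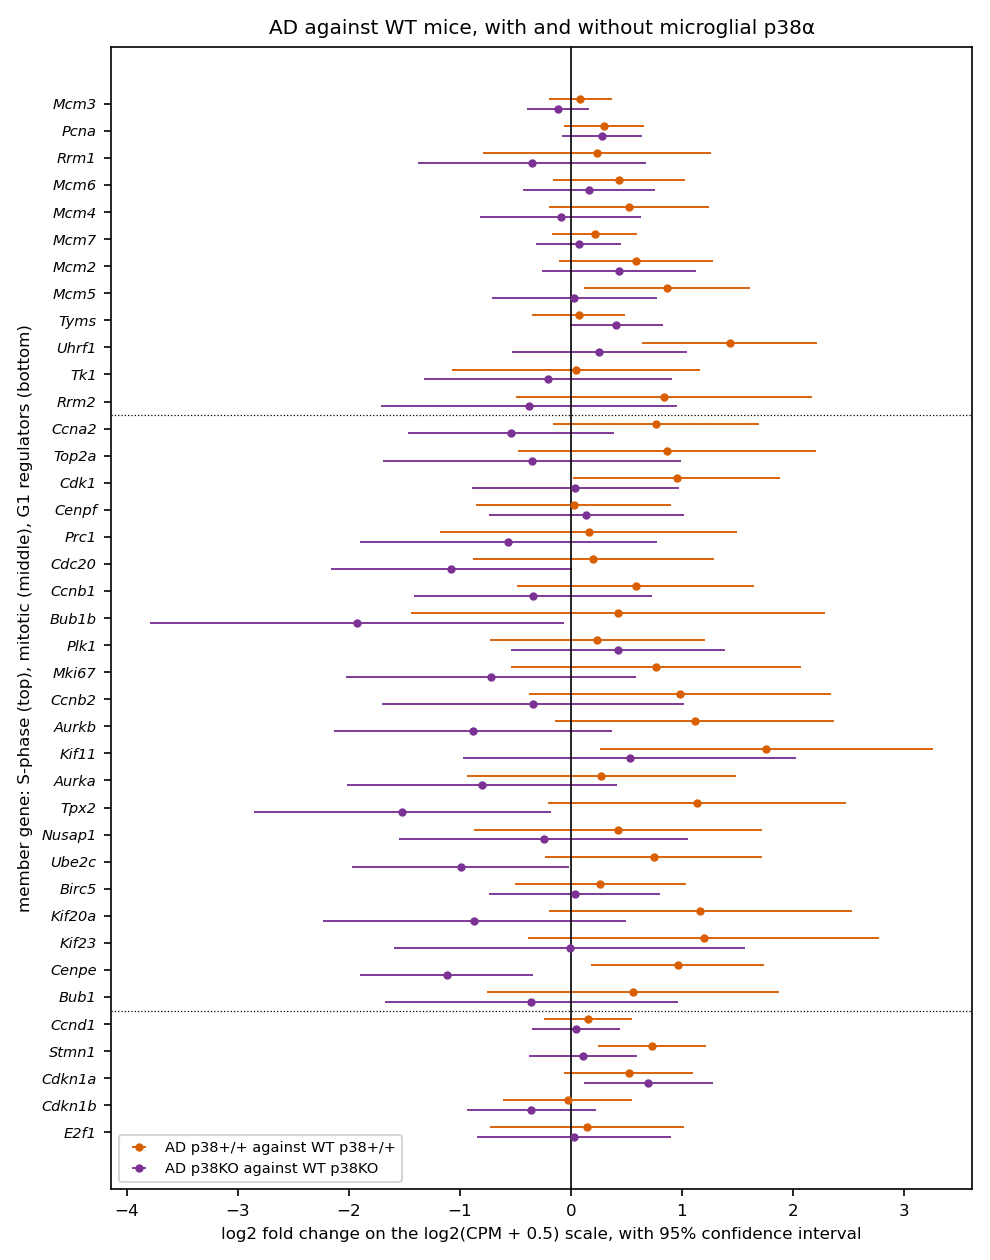
Log2 fold change on the log2(CPM + 0.5) scale (horizontal axis) of the 39 genes (vertical axis) for AD over WT mice with p38α and without it, each with its 95% confidence interval from limma. With p38α 38 of 39 points are above 0, and without it 17 of the 22 mitotic points are below 0, but most intervals include 0 and those of the 2 comparisons overlap for most genes.

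Deletion of p38α in AD mice was compared next, and this comparison shares the AD p38+/+ libraries with the first comparison and the AD p38KO libraries with the preceding comparison. Of the 22 mitotic genes 21 had a lower mean in AD p38KO than in AD p38+/+ mice, with Plk1 the exception (0.32, and -0.23 without AD p38KO mouse 4), and the median log2 fold change was -0.84. Of the 12 S-phase genes 10 were lower, with Tyms and Pcna the exceptions, and the median was -0.24, against -0.02 over all genes. Both sums lay below those of all AD p38+/+ mice by narrow margins. For the mitotic sum the highest AD p38KO value was 63.45 CPM and the lowest AD p38+/+ value 63.60 CPM. For the S-phase sum these were 338 and 343 CPM. The mitotic sums of AD p38KO mice 1 and 4 (63.45 and 63.0 CPM) include 4 and 9 genes listed at 0, which may be failed estimates. This lack of overlap may therefore not hold. Without AD p38KO mice 1 and 4 the medians were -0.94 (19 lower) and -0.13 (10 lower). Limma called none of the 39 and 0.0503% of all genes, and at an unadjusted p under 0.05 it found 7 members lower (Cenpe, Tpx2, Birc5, Bub1b, Kif20a, Mki67 and Cdc20) and none higher, against 4.66% of all genes lower. Only Cenpe did not overlap, against 2.02% of all genes lower without overlap.

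For Mki67 the 4 AD p38KO mice were at 1.05, 3.66, 0.233 and 0.948 CPM and its log2 fold change was -1.51 ± 0.62 (SE, limma, adjusted p = 0.678). Kif20a was at 5.07, 2.03, 3.85 and 1.30 CPM in AD p38+/+ and 0, 0.863, 3.17 and 0 CPM in AD p38KO mice, and Cdc20 at 4.01, 3.59, 3.80 and 6.95 and 4.36, 2.55, 3.03 and 0 CPM. In each of these 3 genes the lowest AD p38KO values were below all AD p38+/+ values and the highest were not. Kif20a was listed at 0 in AD p38KO mice 1 and 4, and Cdc20 in mouse 4. The fold changes of these 3 genes without AD p38KO mice 1 and 4 are not given here.

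In WT mice the loss of p38α went with a higher mean in 18 of the 22 mitotic genes (median log2 fold change 0.40) and in 6 of the 12 S-phase genes (median 0.01), against 0.02 over all genes. Limma called none of the 39, and 0.00719% of all genes. Uhrf1 was the only member at an unadjusted p under 0.05, higher in WT p38KO mice, against 1.97% of all genes higher. Tpx2 alone did not overlap and was higher, against 1.40% of all genes. Ube2c, the ubiquitin-conjugating enzyme that works with the anaphase-promoting complex, had the largest fold change of this comparison, 0.95 ± 0.47 (SE, limma, adjusted p = 1.00), with values of 0.580, 0.852, 1.37 and 1.41 CPM in WT p38+/+ and 4.80, 4.12, 1.30 and 1.15 CPM in WT p38KO mice, which overlapped.

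Whether the AD effect differed with p38 genotype was tested directly as an interaction. The estimate was negative for 20 of the 22 mitotic genes (median -1.22 on the log2 scale) and 11 of the 12 S-phase genes (median -0.26), against a median of -0.06 over all genes, and without AD p38KO mice 1 and 4 for 21 (median -1.29) and 10 (median -0.37). Limma called none of the 39 and 0% of all genes, so no member was shown to respond differently to amyloid with and without p38α. At an unadjusted p under 0.05 there were 7 members, all negative (Cenpe, Tpx2, Ube2c, Aurkb, Kif20a, Uhrf1 and Ccna2), against 2.46% of all genes negative. The interaction of Cenpe was -2.08 ± 0.52 (SE, limma, adjusted p = 0.763) and that of Tpx2 was -2.66 ± 0.90 (SE, limma, adjusted p = 1.00).

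Over both p38 genotypes the APP/PS1 main effect was positive for 28 of the 39 (9 S-phase, 15 mitotic and 4 of the others). None was called, against 1.03% of all genes, and 6 had an unadjusted p under 0.05 and were higher (Uhrf1, Cdkn1a, Stmn1, Pcna, Kif11 and Mcm2), against 6.25% of all genes higher. For the p38 KO main effect 26 of the 39 were negative, none was called, against 0.0791% of all genes, and Birc5 alone had an unadjusted p under 0.05 and was lower, against 3.19% of all genes lower.

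Other genes of the cycle were read from lists that hold none of the 39. None of 57 other S-phase genes, 56 other G2/M genes and 32 other regulators of the G1/S step was called by limma in any of the 7 comparisons. Without AD p38KO mice 1 and 4, Gas2l3 of the G2/M list was called for the APP/PS1 main effect (log2 fold change 1.20, adjusted p = 0.0329, against 0.99 and 0.299 with them). The share of all genes called in that refit is not given here. For AD p38+/+ over WT p38+/+ mice 42 of the 57 S-phase genes were higher (median log2 fold change 0.18, 4 at an unadjusted p under 0.05), 43 of the 56 G2/M genes (median 0.33, 6 at that p) and 20 of the 32 G1/S regulators (median 0.03, none at that p). Of all genes tested, 4.69% were higher at that p. For AD p38KO over AD p38+/+ mice 44 of 57, 36 of 56 and 13 of 32 were lower, with 7, 7 and 1 of them at an unadjusted p under 0.05, against 4.66% of all genes. Without AD p38KO mice 1 and 4, 36, 39 and 18 were lower. Cdc6, which loads the helicase at origins, was at 0.99 to 3.21 CPM in AD p38+/+ and at 0 to 0.0678 CPM in AD p38KO mice, and its log2 fold change was -2.03 ± 0.51 (SE, limma, adjusted p = 0.272). Gins3, a partner of the helicase, was at 5.42 to 8.65 and 0 to 3.32 CPM, with -1.83 ± 0.47 (SE, limma, adjusted p = 0.272). From another comparison, AD p38KO over WT p38KO mice, Anln and Ccnd2 are named for their small p, and neither was called with all libraries. Anln, the anillin of the cleavage furrow, was higher in AD p38KO (1.67 to 14.7 CPM) than in WT p38KO mice (0.144 to 2.03 CPM), by 2.31 ± 0.58 (SE, limma, adjusted p = 0.117). This was 1.37 without AD p38KO mice 1 and 4, and Anln was called without AD p38KO mouse 2 (2.76, adjusted p = 0.0498). Ccnd2, cyclin D2, was lower, at 0 to 1.504 against 2.07 to 4.91 CPM, with -1.93 ± 0.50 (SE, limma, adjusted p = 0.127).

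Of 26 p53 target genes tested, Pmaip1, which promotes apoptosis, was called for the APP/PS1 main effect, and no other in any comparison. Its log2 fold change was 1.03 ± 0.24 (SE, limma, adjusted p = 0.0432), but the call was lost in 12 of the 16 refits that leave out 1 library (adjusted p = 0.0283 to 0.121, log2 fold change 0.91 to 1.14) and without AD p38KO mice 1 and 4 (log2 fold change 0.98, adjusted p = 0.0997). Pmaip1 lay at 1.09 to 3.04 CPM in WT p38+/+, 1.46 to 3.89 in WT p38KO, 3.79 to 6.36 in AD p38+/+ and 4.19 to 7.74 in AD p38KO mice. Tigar, another target, was at 2.20 to 5.86 CPM in AD p38+/+ and 3.73 to 13.1 CPM in AD p38KO mice, with a log2 fold change of 1.22 ± 0.36 (SE, limma, adjusted p = 0.442), which was 0.67 without AD p38KO mice 1 and 4. Leaving out 1 library called a few more genes of these lists, named here after their values were seen and without the share of all genes called in the same refit. For the APP/PS1 main effect they were Gas2l3 (adjusted p = 0.00848) and Cdca8 (adjusted p = 0.0426) without AD p38KO mouse 4, Cdca3 (adjusted p = 0.0458) without WT p38KO mouse 2, Sulf2 (adjusted p = 0.00968) without AD p38+/+ mouse 4, all higher, and Trp53inp1, lower, without WT p38+/+ mouse 2 (adjusted p = 0.00581, and 0.0411 for AD p38+/+ against WT p38+/+). Cbx5 was higher in AD p38KO than in WT p38KO mice without WT p38KO mouse 2 (adjusted p = 0.0473). The median log2 fold change of the 26 was between 0.00 and 0.09 in the 4 comparisons of 2 groups.

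The transcript table held 140 transcripts of the 39 genes, of which 63 were tested, and every gene had at least 1. Limma called none of the 63 in the comparisons of 2 groups. The calls over all 34323 transcripts tested were 0.122% for AD p38+/+ against WT p38+/+, 0.0728% for AD p38KO against WT p38KO, 0.0320% for AD p38KO against AD p38+/+ and 0.0146% for WT p38KO against WT p38+/+. At an unadjusted p under 0.05 there were 8, 6, 11 and 1 of the 63 in this order, against 5.36%, 8.57%, 7.75% and 4.27% of all transcripts. The transcript ENSMUST00000212811 of Mcm5 had a log2 fold change of 1.57 ± 0.45 for AD p38+/+ over WT p38+/+ mice (SE, limma, adjusted p = 0.458), and ENSMUST00000072119 of Ccnb1 one of -2.04 ± 0.55 for AD p38KO over AD p38+/+ mice (SE, limma, adjusted p = 0.357), whereas Ccnb1 summed over its transcripts had -0.82 ± 0.51.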

How the data were processed

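Per the labels and the study's methods, the authors used STAR to map the reads of 16 microglia libraries on mm10, quantified Ensembl release 100 transcripts in Partek Flow (10.0.22.0828), scaled each library to CPM and added 0.0001. The deposited CPM of 20267 genes and 61144 transcripts were used, and 0 columns were left without a sample. Reads could not be recovered, since 75.2 to 81.7% of low values were whole within 0.05 read. The 13912 genes, and separately the 34323 transcripts, that reached 1 CPM in 4 libraries were fitted as log2(CPM + 0.5) by limma with a trended prior (limma 3.58.1, R 4.3.3), all 16 libraries in 1 model, two-sided, with Benjamini-Hochberg adjustment over all features of a comparison. Called means an adjusted p under 0.05. A negative median or fold change is lower in the group named first.

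The members and the lists of other genes were chosen with earlier results of these data known. Given by mouse are up to 4 members per role with the smallest p in a comparison of 2 groups and the 3 with the highest mean CPM, 18 in all. Kif11, Aurkb, Mki67, Kif20a, Cdc20 and Ube2c were added after their values were seen. Of the other lists, genes called and up to 3 by smallest p could be named. Each library is a separate mouse, and p-values measure the spread between these mice. Counting error was not modelled separately, and the level of 3 reads given above only marks low values. TPM were rebuilt from the transcript CPM and GENCODE M21 lengths. The test was checked on simulated data with changes put into AD p38+/+ mice only. Of 100 genes changed by 1 on the log2 scale it called 44, and of 100 changed by 2 it called 87. For transcripts it called 8 and 52. A member that was not called may therefore still differ. Alternatives were other pseudocounts, filters and scalings, array weights, sex and S0 (3 libraries whose label ends so) as covariates, the groups compared alone, the animal number as replicate block, and leaving out libraries. Figures were drawn with Python 3.11.15 and matplotlib 3.10.9.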

Additional observations from a re-analysis of the deposited data

Results flagged for a closer look

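A sample far from the other 3 of its group was looked for in the 18 genes given by mouse and the 3 summed classes, 84 groups in all, of which chance marks about 1 in 20, and 7 were found. In AD p38KO mouse 4, Tyms was at 23.9 CPM against 15.3 to 15.8 CPM in the other 3 mice, and Rrm1 at 5.41 CPM against 44.9 to 50.1 CPM. In AD p38KO mouse 1, Tpx2 was at 5.56 CPM against at most 0.155 CPM. Bub1b was at 5.05 CPM in AD p38KO mouse 3 and listed at 0 in the other 3. In WT p38KO mouse 2, Ccnd1 was at 181 CPM against 115.97 to 125 CPM, and the 4 G1 regulators with Stmn1 summed to 254.2 CPM against 176 to 186 CPM. Pcna was at 34.3 CPM in WT p38KO mouse 3 against 39.5 to 39.7 CPM.

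Cenpe stood out as a difference between genotypes, because every AD mouse lay above every WT mouse with p38α and below every WT mouse without it. The limma interaction was -2.08 on the log2 scale (adjusted p = 0.763), which did not pass the test.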

How the results depend on the processing

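Across 29 alternatives, the count of members called stayed at 0 in 197 of 200 refits and that of member transcripts in all 200. In 3 refits that leave out a library, 1 member was called, and the share of all genes called there is not given. These are the refits without AD p38KO mouse 1 for AD p38KO against WT p38KO (Tpx2, adjusted p = 0.0303) and against AD p38+/+ (Tpx2, log2 fold change -2.59, adjusted p = 0.0472), and without AD p38KO mouse 4 for the APP/PS1 main effect (Uhrf1, adjusted p = 0.0350), so leaving out each library in turn gave 0 to 1 in these 3 comparisons and 0 in the other 4. The log2 fold change of Rrm1 for AD p38KO over AD p38+/+ reversed to 0.11 without AD p38KO mice 1 and 4 and to 0.15 without mouse 4 alone, and leaving out each library in turn gave -0.89 to 0.15. With no pseudocount beyond the 0.0001 of the authors, the median of the mitotic genes was -1.54 for AD p38KO over WT p38KO, -3.34 for AD p38KO over AD p38+/+, -1.09 for the p38 KO main effect and -3.92 for the interaction, and with 0.1 CPM the interaction was -1.85. The cause was not tested. In AD p38+/+ against WT p38+/+ mice 19 to 22 of the mitotic and 9 to 12 of the S-phase genes stayed positive in every refit that kept all of them, and the smallest adjusted p of a member was 0.0541 to 0.673. The S-phase median for AD p38KO over WT p38KO (-0.09 to 0.23) and for WT p38KO over WT p38+/+ (-0.06 to 0.10) and the mitotic median for the APP/PS1 main effect (-0.28 to 0.18) took both signs. The animal numbers did not pair the mice, as deviations of same-numbered mice correlated by -0.13 to 0.18 with 2 of 24 pairs over 0.1, and with the animal number as replicate block 0 members were called in each of the 7 comparisons. Depth limits the mitotic genes most, whose mean levels were 0.961 to 5.40 CPM.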
